A study of Mus musculus with 123 samples.

Results

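The sarcoplasmic reticulum (SR) calcium handling genes are 9 of the 23337 gene symbols in the count table. The choice was made by name for their role in the SR, with earlier results of these data known. They are the calcium pump Atp2a2 and its inhibitors Pln and Sln, the luminal calcium binders Casq2 and Hrc, the release channel Ryr2 and its partner Fkbp1b, and the junctional proteins Trdn and Jph2. All 9 have a row in the table. They were read in single GFP+ cells from hearts of the αMHC-GFP mouse strain, in which GFP is driven by the promoter of the cardiac myosin heavy chain gene Myh6, at embryonic day 9.5 (E9.5), E12.5 and postnatal day 1 (P1). Hearts were dissociated with collagenase type I at E9.5 and E12.5 and with Liberase at P1, so age and enzyme cannot be told apart where P1 is compared with the embryonic cells. Of 123 cells, the 112 with 2000 or more genes were used, namely 42 E9.5, 29 E12.5 and 41 P1 cells.

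The SR is the internal calcium store of a cardiomyocyte. Calcium leaves it through the ryanodine receptor RyR2, which is opened by calcium entering the cell, and the contraction that follows ends when the pump SERCA2a returns the calcium to the store. Phospholamban and sarcolipin are short membrane proteins that slow the pump, the former in ventricle and atrium and the latter mainly in atrium, and calsequestrin-2 buffers calcium next to the release channel, where triadin holds it.

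No animal, litter or chip is named in the labels, so the cells of a time point counted as 1 sample and not as replicates, and no p-value was computed. The prefixes of the cell titles part the E9.5 cells into sets C (14 cells) and N530 (28 cells) and the E12.5 cells into sets C (20 cells), N523 (8 cells) and a single cell named E12-5b, while all P1 cells belong to set C. The spread of a ratio is given as its range over the sets of 6 or more cells. A range against P1 varies the embryonic side only, and the E12-5b cell enters no range. The ratio over all cells can therefore lie outside its range, and a narrow range is no measure of precision. A level is the mean over cells of counts per 1000000 (CPM), each cell weighing the same. Total counts ran from 268301 to 6351742 per cell at E9.5, from 148258 to 7711355 at E12.5 and from 69522 to 327360 at P1, and 1 count in the cell of median depth was worth 0.404, 2.03 and 6.71 CPM. Shares of cells were therefore compared after each cell was thinned to 60000 counts. Of 8 cardiomyocyte markers (Tnnt2, Tnnc1, Actc1, Actn2, Ttn, Myh6, Myh7 and Myl4), 5 or more reached 100 CPM in 39 of 42, 29 of 29 and 40 of 41 cells. The summed endothelial markers had a median of 1.66 CPM at E9.5 and 0 at E12.5 and P1, the fibroblast markers 0.125, 0 and 0 CPM, and the macrophage, erythroid, epicardial and skeletal muscle markers 0 at each time point. The summed smooth muscle markers were higher and were lower at each later time point, with medians of 4373, 2324 and 1110 CPM. Of these 5 genes Myh11 and Rgs5 had no count at E12.5 and P1, and the counts there came from Acta2, Tagln and Cnn1, of which Acta2 and Tagln are known to be expressed in developing cardiomyocytes too. The summed atrial markers had medians of 9197, 4104 and 396 CPM and the ventricular markers 3427, 6941 and 16664 CPM. The part of these lists in the differences between time points was not tested.

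The SR transcripts together made up a larger part of the P1 cells than of the embryonic cells. Their summed level was 85 to 17733 CPM with a median of 1973 at E9.5, 432 to 7735 with a median of 2594 at E12.5, and 253 to 27258 with a median of 16541 at P1. In the thinned cells the number of the 9 genes found had a median of 4 at E9.5, 5 in E12.5 cells and 6 in P1 cells. The genes did not follow a common course: Casq2, Pln and Sln were near 0 or low at E9.5, Atp2a2 and Ryr2 were already abundant there, and Jph2 and Fkbp1b were at their highest mean level at E9.5.

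**Figure D1:**
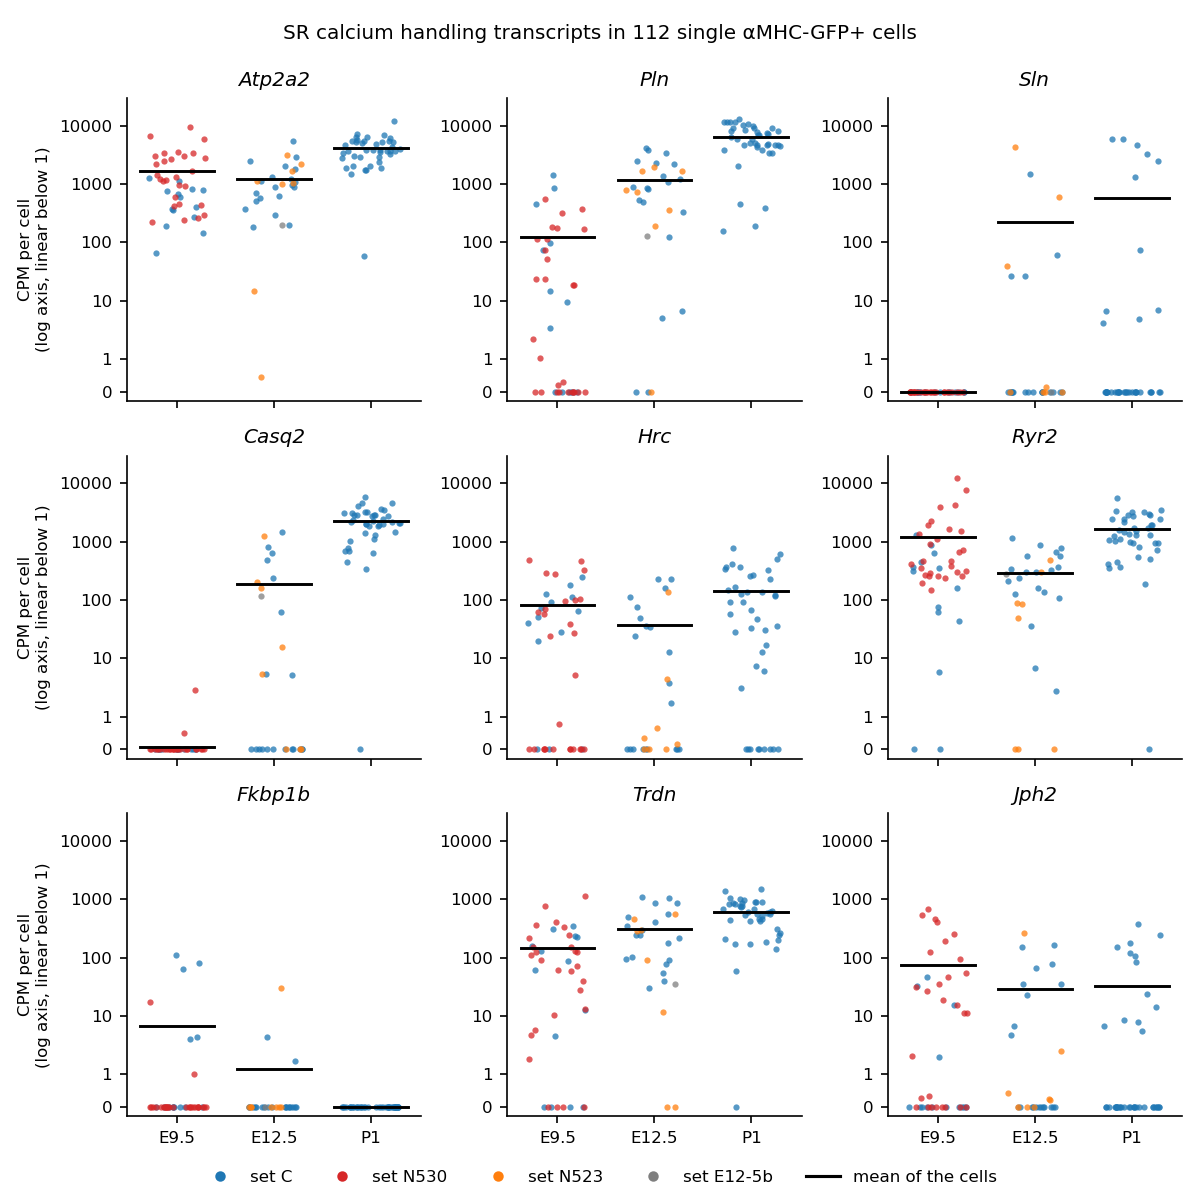
CPM of each of the 9 SR genes in 112 cells (y, log axis, linear below 1) at E9.5, E12.5 and P1 (x), with 1 point per cell coloured by naming set and a black line at the mean of the cells. Casq2 is at or near 0 in all E9.5 cells and at 343 CPM or more in 40 of 41 P1 cells, while Atp2a2 is found in every cell and Sln is at 0 in most cells at every time point.

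A gene was called higher or lower where the mean levels differed 2-fold or more, the higher mean was 50 CPM or more, the gene was found in 25% or more of the cells of that time point, and every combination of naming sets had the same direction. From E9.5 to E12.5, 4 of the 9 genes were called higher (Casq2, Pln, Sln and Trdn) and 1 lower (Hrc), and over all genes 10.6% of 4546 were called higher and 15.3% lower. From E12.5 to P1, 5 were called higher (Casq2, Atp2a2, Pln, Ryr2 and Hrc) and 0 lower, against 13.1% and 25.8% of 3966 genes. From E9.5 to P1, 5 were called higher (Casq2, Atp2a2, Pln, Sln and Trdn) and 0 lower, against 16.5% and 35.8% of 4444 genes. The numbers of SR genes that met the level and share minimum were 8, 7 and 8. The median log2 ratio of the 9 genes was −0.41, 1.73 and 1.32 in these comparisons and that of all genes tested −0.09, −0.37 and −0.62. The former includes genes below the minimum, namely Fkbp1b in each comparison and Jph2 from E12.5 to P1, so these medians are not over like sets. Without Fkbp1b the 2 middle genes from E9.5 to E12.5 were Atp2a2 (−0.41) and Trdn (1.08), so the sign of that median rests on Fkbp1b. The 3 comparisons share their cells. Since the 9 genes were chosen with earlier results of these data known, their counts beside the shares over all genes are a description and no test. The split of all calls moved with the scaling: with edgeR TMM factors it was 930 higher and 350 lower from E9.5 to E12.5 in place of 481 and 697, and 365 and 1384 from E12.5 to P1 in place of 521 and 1023. The TMM factors added 0.43 to each log2 ratio of E12.5 to E9.5, took 0.26 from each of P1 to E12.5 and added 0.17 to each of P1 to E9.5. Under them Atp2a2 changed direction between E9.5 and E12.5, where it was not called, to a log2 of 0.02.

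**Figure D2:**
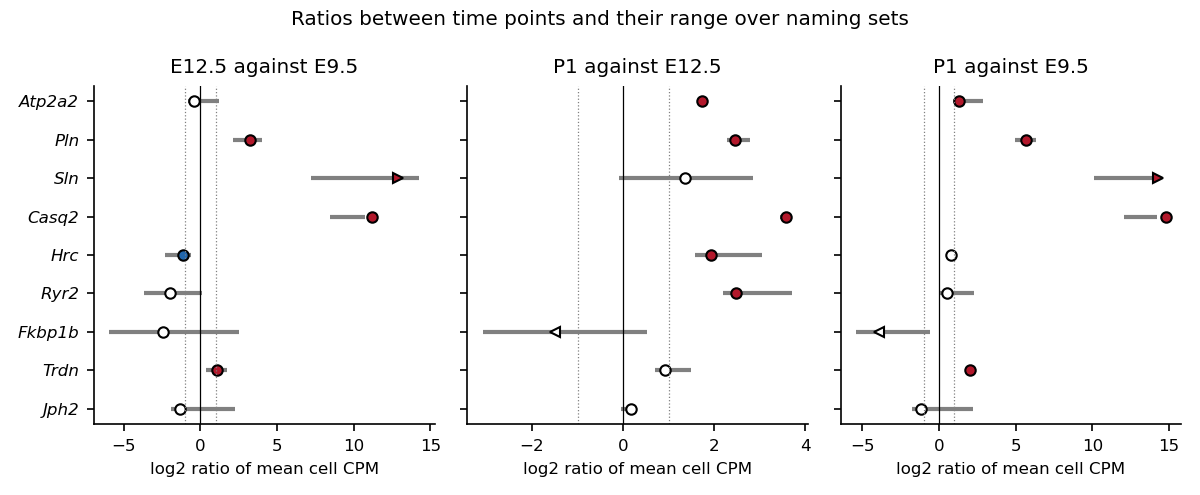
Log2 ratio of mean cell CPM (x) for each SR gene in the 3 comparisons, with filled red and blue symbols for genes called higher and lower, open symbols for genes not called, triangles for values against a time point without counts, set there to 3 counts over all its cells, and grey bars for the range over naming sets. The x scales differ between panels. Casq2 and Pln lie right of the dotted 2-fold line in all 3 panels.

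Atp2a2, which encodes the SERCA2 pump (GRCm38, chr5:122453513-122502225, minus strand), was found in all 112 cells. At E9.5 its level ran from 65.2 to 9641 CPM with a median of 953. At E12.5 it ran from 0.446 to 5531 CPM with a median of 1025, and at P1 from 58.3 to 12240 CPM with a median of 3842. The embryonic medians lay close together and the P1 median lay above the upper quartile of both (2429 and 1653 CPM), though the full ranges overlapped. The mean levels were 1660, 1247 and 4148 CPM. P1 was 3.33-fold above E12.5 (log2 1.73, 1.69 to 1.70 over the naming sets) and 2.50-fold above E9.5 (log2 1.32, 0.91 to 2.89). The latter call was lost in the deposited TPM (log2 0.81) and where set N530 alone stood for E9.5 (log2 0.91). The step from E9.5 to E12.5 had no common direction (log2 −0.41, −0.79 to 1.20), because the pump was at a mean of 559 CPM in E9.5 set C and 2211 CPM in set N530. Per length it was the only sizeable SERCA. It supplied 94.7% of the SERCA transcripts per 1000000 (TPM) at E9.5 and 100% at P1. The remainder at E9.5 was the fast skeletal muscle pump Atp2a1, found in 8 of 42 cells. Its mean there was 38.4 TPM with a median of 0, and most of it came from 1 cell of set N530 at 1465.5 TPM.

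Pln, which encodes phospholamban (chr10:53337667-53345987, plus strand), was low at E9.5 and had the highest mean of the 9 transcripts per length at P1, 4235 TPM against 1805 TPM for Sln and 1520 TPM for Casq2. It ran from 0 to 1412 CPM with a median of 6.56 at E9.5, from 0 to 4217 CPM with a median of 818 at E12.5, and from 160 to 12883 CPM with a median of 5996 at P1. No P1 cell lacked it. In 37 of the 41 P1 cells and 9 of the 29 E12.5 cells it lay above the highest E9.5 cell. Mean levels were 123, 1160 and 6396 CPM. E12.5 was 9.47-fold above E9.5 (log2 3.24, 2.14 to 4.04 over the naming sets), P1 was 5.51-fold above E12.5 (log2 2.46, 2.29 to 2.80), and P1 was 52.2-fold above E9.5 (log2 5.71, 4.94 to 6.33). Of the 2759 exonic bases of Pln, 1644 lie in exons of Cep85l on the opposite strand, and the strand setting of the counting is not given in the sources used here. Gm9766, an older symbol of Cep85l, had 513 counts at E9.5, 53 in E12.5 cells and 2 in P1 cells, against 7732, 50719 and 42325 counts of Pln.

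Sln, which encodes sarcolipin (chr9:53850164-53854560, plus strand), had no count in any of the 42 E9.5 cells, which allows up to 0.0297 CPM over 101042067 counts. It was found in 8 of 29 cells at E12.5 and in 11 of 41 cells at P1, and its median was 0 CPM at every time point. The highest cell reached 4286 CPM in E12.5 cells and 6034 CPM in P1 cells. The E12.5 mean of 225 CPM rested on few cells: 1 cell of set N523 held 87.3% of its counts, and without that cell the mean was 80.3 CPM. At P1 the cell with the most counts held 23.1% of them, and the mean was 583 CPM with that cell and 448 CPM without it. In pooled counts, E12.5 was at least 15219-fold and P1 at least 19187-fold above the floor of 3 counts over all E9.5 cells, and at least 2123-fold and 15088-fold without the cell with the most Sln counts at E12.5 and at P1. Both calls of Sln against E9.5 were lost after thinning to 60000 counts, and that of E12.5 also in set C alone. P1 and E12.5 could not be ordered for Sln (log2 1.37, −0.08 to 2.87).

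Both inhibitors are encoded by a single coding exon, and their short reading frames are shown in full because the comparison that follows sets these transcripts against each other in the same cell. The sequences are from the GENCODE transcripts on GRCm38, chr10:53343864-53344022 for Pln (159 bases, 52 residues) and chr9:53853473-53853568 for Sln (96 bases, 31 residues), both on the plus strand, with the start and stop codons in capitals.
Pln: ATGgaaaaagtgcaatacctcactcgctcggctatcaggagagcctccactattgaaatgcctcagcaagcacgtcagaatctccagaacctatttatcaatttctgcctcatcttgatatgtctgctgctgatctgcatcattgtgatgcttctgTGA
Sln: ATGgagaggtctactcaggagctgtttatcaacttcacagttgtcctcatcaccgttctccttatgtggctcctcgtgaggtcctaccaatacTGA

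Pln and Sln were set against each other per length, in the deposited TPM. In the thinned cells no E9.5 cell held both transcripts, 19 of 42 held Pln alone and 23 held neither. At E12.5 5 of 29 cells held both (17.2%, exact 95% interval 5.85 to 35.8), 20 held Pln alone, 2 held Sln alone and 2 held neither. The cells with both were 2 of 20 (10%) in set C and 3 of 8 (37.5%) in set N523. At P1 8 of 41 held both (19.5%, 8.82 to 34.9) and the other 33 held Pln alone. Sln was thus never found in P1 without Pln. These intervals treat the cells as independent draws and leave out differences between animals, litters and chips. The counts are of reads, since the libraries carry no molecular identifiers.

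Sln exceeded Pln in TPM in 6 of the 41 P1 cells and in 5 of the 29 E12.5 cells. In the 6 P1 cells Sln was at 1351 to 6034 CPM, and Sln made up 65.4% to 99.4% of the TPM of the pair. In the other 35 P1 cells Sln was at 0 to 74.8 CPM, and 4 of the 5 that held it had a single count of Sln. Pln ran from 160 to 4763 CPM with a median of 1252 in the 6 cells and from 190 to 12883 CPM with a median of 6982 in the other 35. By counts in place of TPM the number was 4 of 41, and it was 5 when the counts were divided by the union exon lengths of GENCODE. The length behind the deposited Sln TPM is 0.0908 of that of Atp2a2, against 0.217 in GENCODE, so the TPM place Sln higher relative to Pln than the GENCODE lengths do. The cells that changed sides by counts held 677 Sln and 1275 Pln counts, and 171 Sln and 431 Pln counts, and by the GENCODE lengths the latter alone changed sides.

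**Figure D3:**
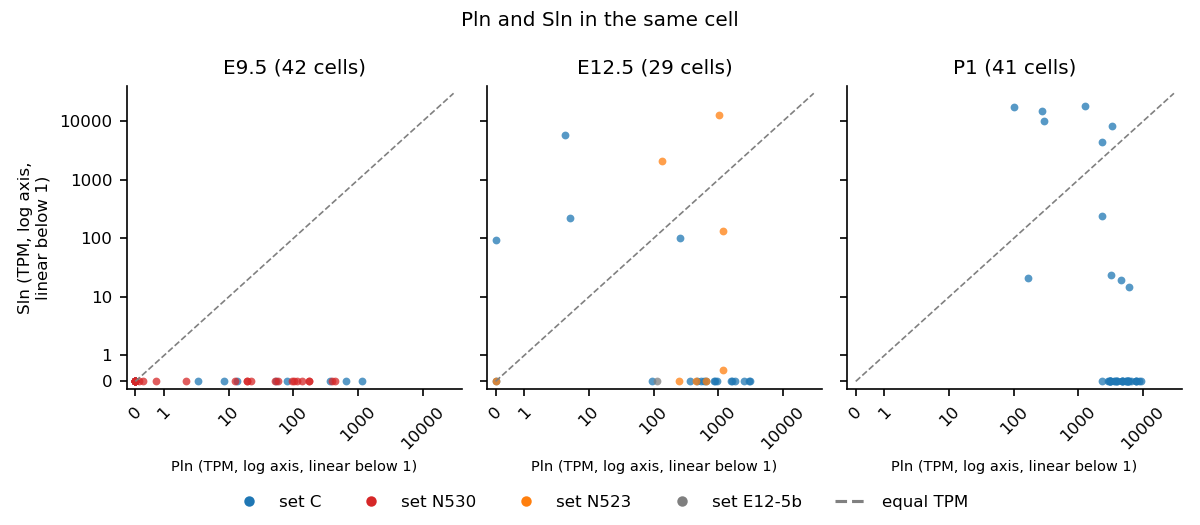
Sln against Pln in TPM (both axes log, linear below 1) in each of 42 E9.5, 29 E12.5 and 41 P1 cells, coloured by naming set, with a dashed line where the levels are equal. No E9.5 cell leaves the Sln baseline, and 5 E12.5 cells and 6 P1 cells lie above the line.

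The P1 cells with more Sln than Pln were also the cells with the most Myl7, the atrial myosin light chain. Myl7 ran from 6399 to 23043 CPM in these 6 cells and from 0 to 1117 CPM in the other 35, without overlap, and the ventricular light chain Myl2 had a median of 417 CPM against 7356 CPM, with overlapping ranges. The ranges of the other SR genes overlapped between these groups. In the 6 cells and the other 35, the medians were 3760 and 3842 CPM for Atp2a2, 2606 and 2124 CPM for Casq2, 1210 and 1453 CPM for Ryr2, 702 and 561 CPM for Trdn, 129 and 58.1 CPM for Hrc, and 0 in both for Jph2. In the 5 E12.5 cells Myl7 ran from 13339 to 34330 CPM and in the other 24 from 318 to 16053 CPM, so the groups overlapped there. Their medians were 2035 and 925 CPM for Atp2a2, 550 and 231 for Trdn, and 139 and 291 for Ryr2. They were 35.4 and 0 CPM for Jph2, 5.42 and 0 for Casq2, and 0 and 2.72 for Hrc, and all these ranges overlapped. Over the 41 thinned P1 cells, among 3745 genes found in 25% or more of them, Pln had the lowest Spearman rho with Sln of all (−0.58), followed by Cox7c (−0.55), Myl3 (−0.54), Rpl36 (−0.53) and Cox6c (−0.52), and Angpt1 (0.63), Nppa (0.62), Myl1 (0.61), Wisp1 (0.59) and Myl4 (0.59) had the highest. These coefficients describe cells of 1 sample that share depth limits, with Sln at 0 in 33 of the 41 thinned cells.

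Casq2, which encodes the cardiac calsequestrin (chr3:102086415-102146514, plus strand), was close to absent at E9.5 and abundant at P1. Only 2 of 42 E9.5 cells held it, with 9 counts in all and at most 2.88 CPM in a cell. At E12.5 it was found in 14 of 29 cells, from 0 to 1469 CPM with a median of 0. At P1 it was found in 40 of 41 cells, from 0 to 5893 CPM with a median of 2138. Of the E12.5 cells 15 were at 0, 9 were at 5.15 to 243 CPM and 5 were at 493 to 1469 CPM, while 40 of the 41 P1 cells were at 343 CPM or more and 1 was at 0. Only those 5 E12.5 cells thus reached the range of the P1 cells with the transcript. Mean levels were 0.0805, 191 and 2278 CPM. P1 was 12.0-fold above E12.5 (log2 3.58, 3.46 to 3.60 over the naming sets). Against E9.5, E12.5 was 11.21 higher on the log2 scale and P1 14.79 higher. The pooled counts gave ratios of 2924 (exact counting interval 1540 to 6395) and 26276 (13838 to 57473). Single cells weighed on these ratios. At E12.5 1 cell of set N523 held 74.4% of the counts, and without it the first ratio was 883 (464 to 1932). At E9.5 1 cell held 7 of the 9 counts, and without it the ratios were 12840 (3554 to 106034) and 115395 (31940 to 952940). Over the naming sets the log2 differences ran from 8.45 to 10.74 and from 12.05 to 14.20, so both values over all cells lie above their range. The smallest were against a floor of 3 counts in set C, where the 14 E9.5 cells had no count.

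The other calsequestrin gene, Casq1, was lower at P1 than at either embryonic time point. It encodes the form that predominates in fast skeletal muscle, and it is set beside Casq2 here after its values were seen. Its mean was 429 TPM at E9.5, 193 in E12.5 cells and 74.5 in P1 cells, against 0.0828, 136 and 1520 TPM for Casq2. In CPM, Casq1 was called lower at P1 than at E9.5 (log2 −2.13, −2.34 to −1.55 over the naming sets) and than at E12.5 (log2 −1.27, −1.97 to −0.96), while its step from E9.5 to E12.5 was not called and had no common direction (log2 −0.85, −1.39 to 0.41). Casq2 therefore supplied 0.0193% of the calsequestrin TPM at E9.5, 41.3% in E12.5 cells and 95.3% in P1 cells, and its E12.5 part was 46.3% within set C, compared with 30.9% in N523. At P1 a single cell with 1854 TPM held 60.7% of the summed Casq1 TPM, and without it the mean was 30.0 TPM and the part of Casq2 98.1%. The number of cells with more of either gene shifted too, with different cells read at each time point. At E9.5 Casq1 exceeded Casq2 in 37 of 42 cells and Casq2 exceeded Casq1 in none, at E12.5 in 14 and 10 of 29 cells, and at P1 in 1 and 39 of 41 cells. In the thinned E12.5 cells 4 held both, 11 held Casq1 alone and 8 held Casq2 alone. In the cells with more Sln than Pln and in the others, the Casq1 medians were 225 and 15.6 TPM at E12.5. At P1 they were 38.3 and 0 TPM. The ranges overlapped, and the part of chamber make-up in the course of Casq1 was not tested.

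**Figure D4:**
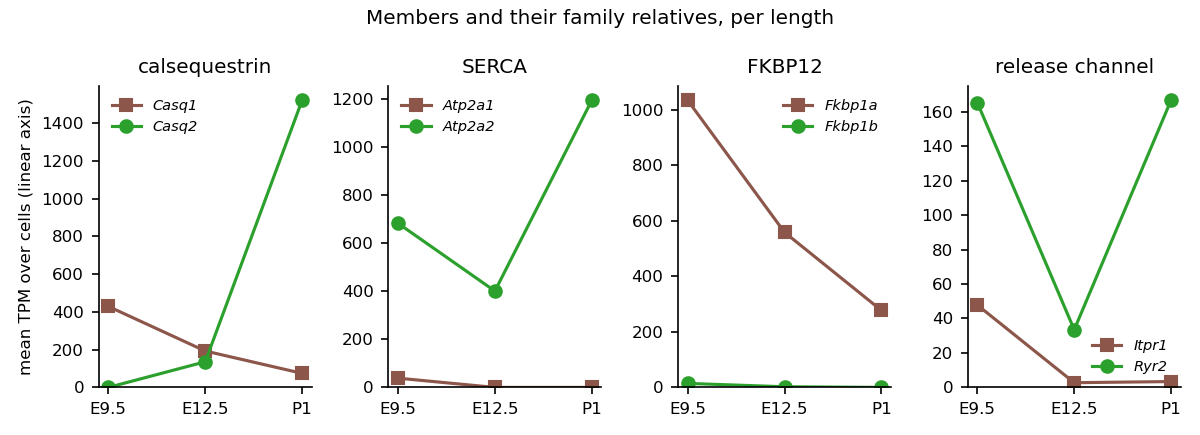
Mean TPM over cells (y, linear axis from 0) at E9.5, E12.5 and P1 (x) for Casq2, Atp2a2, Fkbp1b and Ryr2 (green circles) and for a relative or counterpart of each, Casq1, Atp2a1, Fkbp1a and Itpr1 (brown squares). The mean of Casq1 falls from 429 to 74.5 TPM (30.0 TPM without 1 P1 cell) while that of Casq2 climbs from 0.0828 to 1520 TPM, whereas Atp2a2 and Ryr2 lie above their counterparts at all 3 time points.

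The genes whose profile lay nearest to Casq2 over the 5 naming sets, by Euclidean distance of log2(mean CPM + 1) among 6135 genes, were Hspb6 (distance 2.58), which encodes a small heat shock protein, Sln (2.80), the myoglobin gene Mb (3.74), the muscle creatine kinase gene Ckm (4.41) and Snap91 (4.87). Hspb6 was at 0 CPM in both E9.5 sets, 47.7 and 233 CPM in the E12.5 sets and 714 CPM at P1. Pln stood 1995th and Trdn 1371st in that order.

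Casq2 and Pln were the only SR genes called higher both from E9.5 to E12.5 and from E12.5 to P1, and the 250 bases before their RefSeq start sites (GRCm38.p6, plus strand of both) are shown with short motifs in capitals. The window of Casq2 is chr3:102086165-102086414 and that of Pln chr10:53337436-53337685.
Casq2: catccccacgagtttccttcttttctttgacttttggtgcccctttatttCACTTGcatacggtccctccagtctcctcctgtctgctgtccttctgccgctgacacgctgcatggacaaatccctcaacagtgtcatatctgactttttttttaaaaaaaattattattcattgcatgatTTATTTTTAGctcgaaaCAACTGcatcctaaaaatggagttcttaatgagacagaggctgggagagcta
Pln: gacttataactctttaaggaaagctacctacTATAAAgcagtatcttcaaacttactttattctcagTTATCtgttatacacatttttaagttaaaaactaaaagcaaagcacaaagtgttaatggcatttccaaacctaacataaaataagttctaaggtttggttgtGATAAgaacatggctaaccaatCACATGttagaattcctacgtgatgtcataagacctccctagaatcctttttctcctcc

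The capitals mark the E-box (CANNTG), the GATA motif (GATAA), the MEF2 motif and TATAAA, and the CArG box was also searched, on both strands, with no overlap between the marked motifs. Casq2 held 2 E-boxes and 1 MEF2 motif, 69 to 60 bases before the start. Pln held 1 E-box, 2 GATA motifs and 1 TATAAA. Among 32536 promoters of the same length, 66.2% held an E-box, 22.5% a GATA motif, 2.89% a MEF2 motif, 12.3% a TATAAA and 1.48% a CArG box. The matches describe letters in these windows and were not tested for binding.

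Hrc, which encodes the histidine-rich calcium binding protein of the SR lumen (chr7:45335290-45338974, plus strand), stayed at low levels. It was found in 27 of 42, 17 of 29 and 32 of 41 cells. Its level ran from 0 to 484 CPM with a median of 33.6 at E9.5, from 0 to 228 CPM with a median of 0.649 at E12.5, and from 0 to 771 CPM with a median of 66.4 at P1. The ranges overlapped at all 3 time points and E12.5 had the lowest median. Mean levels were 83.0, 38.1 and 145 CPM. P1 was 3.81-fold above E12.5 (log2 1.93, 1.59 to 3.05 over the naming sets), and E12.5 was 2.18-fold below E9.5 (log2 −1.12, −2.31 to −0.63). This lower call at E12.5 ended without the E9.5 cell that held the most counts (log2 −0.94), in set C alone (log2 −0.63) and with edgeR TMM factors (log2 −0.69). P1 and E9.5 differed by less than the threshold (log2 0.81, 0.73 to 0.96).

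Ryr2, the release channel gene (chr13:11553102-12106945, minus strand), was found in 40 of 42, 26 of 29 and 40 of 41 cells in order of age. It ran from 0 to 12214 CPM with a median of 380 at E9.5, from 0 to 1162 CPM with a median of 237 at E12.5, and from 0 to 5559 CPM with a median of 1342 at P1. The E12.5 cells lay lowest and the highest single values were in E9.5 cells of set N530. Mean levels were 1183, 296 and 1668 CPM. P1 was 5.63-fold above E12.5 (log2 2.49, 2.19 to 3.72 over the naming sets). The E9.5 level depended on the naming set, with a mean of 335 CPM and a median of 237 in set C against 1607 and 470 in set N530, so that neither E12.5 nor P1 differed from E9.5 by the call rule (log2 −3.67 to 0.12 over the sets for E12.5, and 0.05 to 2.32 for P1). The choice of cells changed this: E12.5 was called lower than E9.5 among cells with 5 or more of the 8 cardiomyocyte markers (log2 −2.11), among cells with 3000 or more genes (log2 −1.16) and in sets N530 and N523 alone (log2 −3.67), and P1 was called higher than E9.5 among cells with 3000 or more genes (log2 1.58) and in set C alone (log2 2.32). Ryr2 supplied 99.9%, 99.2% and 98.8% of the ryanodine receptor TPM at E9.5, E12.5 and P1, Ryr1 had no count in the kept cells, and Ryr3 was found in 3, 2 and 5 cells. Itpr1, the gene of an inositol trisphosphate receptor that releases calcium from the endoplasmic reticulum, was at 202, 14.1 and 21.0 CPM and was called lower at E12.5 (log2 −3.84) and at P1 (log2 −3.26) than at E9.5.

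Fkbp1b, which encodes the small RyR2-binding protein FKBP12.6 (chr12:4833174-4841591, minus strand), was scarce throughout. It was found in 7 of 42, 3 of 29 and 0 of 41 cells in order of age, and its highest cell was at 110, 29.9 and 0 CPM. No count at P1 allows up to 0.440 CPM over 6819717 counts. At E9.5 5 of the 7 cells were in set C, where 14 cells had a mean of 18.8 CPM, and 2 of these 5 had fewer than 2 of the 8 cardiomyocyte markers. The pooled P1 level was at least 4.48-fold below E9.5, or at least 2.63-fold without the N530 cell that held 44.2% of the E9.5 counts, and the gene did not reach the 50 CPM minimum of the call rule. Its relative Fkbp1a, which encodes FKBP12, was found in 42 of 42, 29 of 29 and 38 of 41 cells, at a mean of 1034, 559 and 277 TPM, so that Fkbp1b supplied 1.38%, 0.411% and 0% of the TPM of the pair.

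Trdn, which encodes triadin, the junctional anchor of calsequestrin (chr10:33080554-33476709, plus strand), had a higher mean level at each later time point. It was found in 34 of 42, 27 of 29 and 40 of 41 cells. Its level ran from 0 to 1138 CPM with a median of 80.5 at E9.5, from 0 to 1075 CPM with a median of 241 at E12.5, and from 0 to 1515 CPM with a median of 583 at P1. The ranges overlapped throughout. Mean levels were 148, 312 and 595 CPM. P1 was 4.03-fold above E9.5 (log2 2.01, 1.85 to 2.42 over the naming sets). The 2.11-fold difference of E12.5 from E9.5 (log2 1.08, 0.35 to 1.71) just passed the threshold and the 1.91-fold difference of P1 from E12.5 (log2 0.93, 0.70 to 1.49) just missed it. Under 7 of 12 alternative settings the first call was lost, with log2 values of 0.35 to 1.04, and under 4 of 12 the later step was called higher, with log2 values of 1.07 to 1.49.

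Jph2, which encodes the junctophilin that ties the SR to the T-tubule membrane (chr2:163336242-163397993, minus strand), was not called in any comparison. It was found in 24 of 42, 14 of 29 and 13 of 41 cells, and ran from 0 to 675 CPM with a median of 2.05 at E9.5, from 0 to 264 CPM with a median of 0 at E12.5 and from 0 to 372 CPM with a median of 0 at P1. Mean levels were 73.8, 28.8 and 32.3 CPM. The E9.5 level lay almost entirely in set N530, with a mean of 107 CPM against 6.91 CPM in set C, and P1 lay below the former and above the latter (log2 −1.73 and 2.23). Total counts per cell in N530 were 1437114 to 6351742 and in E9.5 set C 268301 to 588443, and the part of depth in the difference between sets was not tested beyond the thinned cells, in which 17 of 28 and 3 of 14 held Jph2.

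By the first time point at which 50% or more of the thinned cells held the transcript, 4 genes were present from E9.5: Atp2a2 (100% of cells), Ryr2 (92.9%), Trdn (71.4%) and Hrc (54.8%). Pln followed at E12.5, from 45.2% to 86.2%, and Casq2 at P1, from 0% at E9.5 through 41.4% to 97.6%. Jph2 (47.6%, 24.1% and 24.4%), Sln (0%, 24.1% and 19.5%) and Fkbp1b (7.14%, 3.45% and 0%) did not reach 50% at any time point. Hrc passed below 50% at E12.5, to 37.9%, before 70.7% at P1. With all counts of each cell, Pln (61.9%) and Jph2 (57.1%) also passed 50% at E9.5, while Casq2 still entered after Pln. The entry of Pln at E12.5 rather than E9.5 also rested on the random draw, since a second draw to the same 60000 counts found it in 50% of the E9.5 cells. Hrc fell to 45.2% of the E9.5 cells where 2 counts were required. In sets N530 and N523 alone, Pln (50%) and Jph2 (60.7%) were present from E9.5 and Casq2 from E12.5, in 4 of 8 cells (50%). At E9.5 the exact intervals over cells of Hrc (38.7% to 70.2%) and Pln (29.8% to 61.3%) both include 50%. Both genes were read in the same cells and not compared as pairs, so their order was not tested. It also differed by set: Hrc was found in 64.3% and Pln in 35.7% of set C, and each in 50% of set N530.

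**Figure D5:**
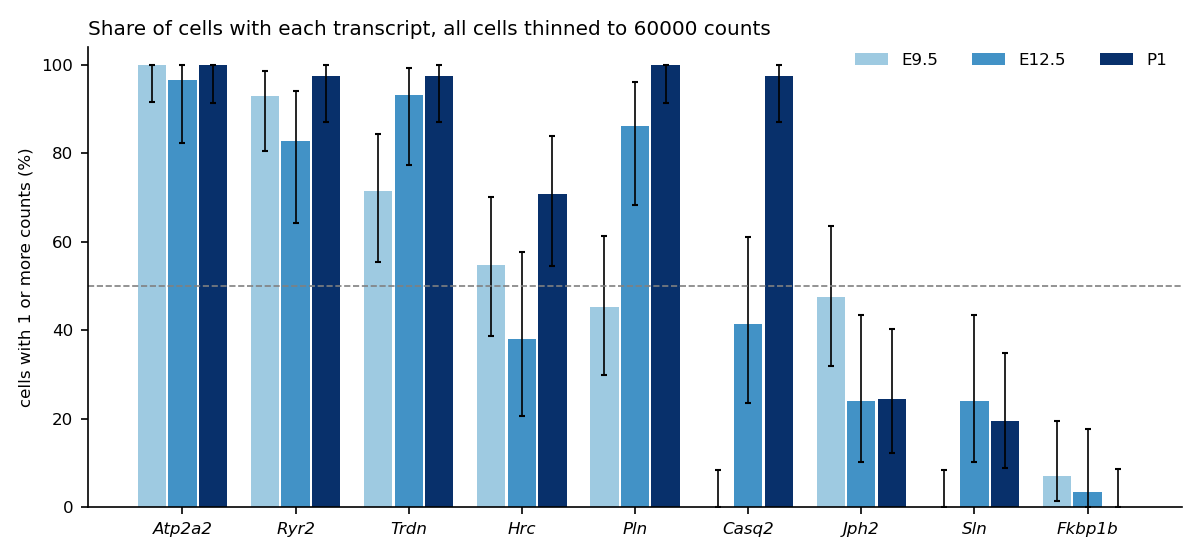
Percent of cells with 1 or more counts of each gene (y) after thinning to 60000 counts, at E9.5, E12.5 and P1 (light to dark bars), with exact 95% binomial intervals that treat cells as independent draws and a dashed line at 50%. Genes are ordered by onset, from Atp2a2 in 100% of E9.5 cells to Fkbp1b, which stays at or below 7.14%.

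The rest of the pathway was read from a list of 66 further genes in the table. From E9.5 to E12.5 36 of them met the level and share minimum, and 4 were called higher and 5 lower. From E12.5 to P1 35 met it, with 9 higher and 4 lower, and from E9.5 to P1 40 met it, with 13 higher and 13 lower. The shares over all genes in these comparisons were 10.6% and 15.3%, 13.1% and 25.8%, and 16.5% and 35.8%. The leading genes at E12.5 against E9.5 were Ppp1r1a, the gene of phosphatase inhibitor-1 (log2 1.49), Cav3, the gene of the muscle caveolin (1.42), and Tcap, a titin partner (1.37), and the lowest were the adenylyl cyclase genes Adcy5 (−5.92) and Adcy6 (−2.59) with Itpr1. At P1 against E12.5 Adcy5 (5.49), Cmya5 (2.86) and Akap6 (2.73), an anchor of protein kinase A, led, and Ppp1r1a (−4.74), the chaperone gene Pdia3 (−1.41) and Casq1 (−1.27) were lowest. At P1 against E9.5 Cmya5 (4.88), Akap6 (3.56) and S100a1 (2.94), which encodes a calcium sensor that binds the pump and the channel, were highest, and the calcium channel gene Cacna1d (−4.69), Itpr1 (−3.26) and Rcn1 (−3.21) were lowest. The group with the most genes called in 1 direction was that of the luminal buffers and chaperones of the endoplasmic reticulum, of which all 10 met the minimum and 7 were called lower at P1 than at E9.5 and 0 higher: Casq1, Calr, Hspa5, Pdia3, Rcn1, Rcn2 and Sepn1. Hspa5 fell from 1284 to 415 CPM and Calr from 315 to 92.0 CPM. Of 10 junctional and T-tubule genes only 3 met the minimum, and those 3 were higher at P1 than at E9.5 (Cav3, Tcap and Cmya5). Of 8 pump genes and regulators 3 met it, and those 3 were also higher (Tmem38a, Srl and S100a1). A gene that is high at 1 time point passes the minimum through that time point alone, as Rcn1, Rcn2 and Sepn1 did through E9.5, so the counts of these groups are given as a description and nothing is read from their shares.

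Within a time point the Spearman correlations between pairs of SR genes in the thinned cells lay between −0.58 and 0.54. Over the 41 thinned P1 cells the largest in size was that of Pln with Sln given above, and the Spearman rho was 0.51 for Atp2a2 with Ryr2, 0.46 for Casq2 with Ryr2 and −0.32 for Casq2 with Pln. At E9.5 it was 0.54 for Atp2a2 with Ryr2 and 0.50 for Hrc with Trdn over 42 cells, the former across naming sets that differ in both genes. At E12.5 the largest was 0.47 for Atp2a2 with Jph2 over 29 cells. In the E12.5 cells Casq2 was found with Pln in 10 cells, without Pln in 2, and Pln without Casq2 in 15.

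Individual cells stood apart. The single P1 cell without Casq2, Ryr2 and Trdn was also the single P1 cell with fewer than 5 of the 8 cardiomyocyte markers. It had 58.3 CPM of Atp2a2, 190 CPM of Pln and 7702 CPM of summed endothelial markers. At E9.5 the 3 cells of set C with fewer than 5 markers held 2, 4 and 2 of the 9 genes and had 65.2, 193 and 380 CPM of Atp2a2, all below the lower quartile of the E9.5 cells, 411 CPM. In E12.5 set N523, the cell with 6728675 counts had 3 counts of Atp2a2 (0.446 CPM) and none of Ryr2, Casq2 or Trdn beside 1951 CPM of Pln and 32004 CPM of Nppa, and Ryr2 was at 0 in 3 of the 8 cells of that set.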

How the data were processed

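The authors captured single cells on the Fluidigm C1 system, amplified cDNA with the SMART-Seq V4 kit, made Nextera XT libraries, mapped reads with OLego and counted them with featureCounts on GRCm38/mm10, per the labels and the methods. The deposited tables hold raw read counts per gene symbol and TPM, which the authors computed from the counts with their own scripts. The gene lengths behind the TPM and the strand setting are not given in the sources used here. CPM were computed from the counts per cell. Cells with fewer than 2000 genes at 1 count (11 of 123, all at P1) were left out. Groups came from the labels, each time point was 1 sample, and no test was made. The 9 genes and all gene lists were chosen with earlier results of these data known. Genes named from the wider pathway list are the 3 with the largest called difference per comparison and direction, beside all of the luminal buffers called lower, which were chosen after their values were seen, as were the family counterparts. Genes like Casq2 and Sln are the 5 nearest to each, and for Sln also the 5 farthest. The counts and TPM were analysed with Python 3.11.15, numpy 2.4.6, pandas 2.3.3 and scipy 1.17.1, and TMM factors with R 4.3.3 and edgeR 4.0.16. The call rule was run on simulated data with differences well above 2-fold and without differences between naming sets. Its behaviour near the threshold, or where naming sets differ, was not tested. Of the further list, 69 genes were sought and 66 matched. Coordinates and exons are from GENCODE on GRCm38 and promoters from RefSeq on GRCm38.p6, where 6 of the 9 genes matched. No amino acid sequences were used here.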

Additional observations from a re-analysis of the deposited data

Results flagged for a closer look

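The 11 P1 cells with fewer than 2000 genes, which entered only the alternative with a minimum of 1000 genes, are given a closer look because they held SR transcripts above the 3-count limit of 4.20 CPM over their summed counts. They had 1091 to 1985 genes and 4903 to 149120 total counts. Their mean cell level was 3060 CPM for Casq2, 6310 for Atp2a2, 8250 for Pln, 44.9 for Sln, 2310 for Ryr2, 101 for Hrc, 713 for Trdn and 14.9 for Jph2, against 2278, 4148, 6396, 583, 1668, 145, 595 and 32.3 CPM in the 41 P1 cells that were used. Casq2, Atp2a2, Pln and Ryr2 were found in all 11 of these cells, Trdn in 10, Hrc in 6, Sln in 2 and Jph2 in 1. Fkbp1b had no count in them. The 2 cells with Sln held 19 and 31 counts of it beside 1133 and 558 counts of Pln.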

How the results depend on the processing

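No paired analysis was possible because no comparison rests on a test and a replicate number only names a cell. The 15 calls were recomputed under 12 alternatives, and all 180 log2 ratios kept their direction. In 165 the call was kept and in 15 it was lost: 7 for Trdn and 3 for Hrc from E9.5 to E12.5, 2 for Sln over the same step, 2 for Atp2a2 and 1 for Sln from E9.5 to P1. Differences that were not called gained a call 15 times, 5 of them for Ryr2, 4 for Trdn, 2 each for Sln and Jph2, and 1 each for Atp2a2 and Fkbp1b. The Sln call from E9.5 to E12.5 was lost in set C alone and after thinning to 60000 counts, where it was found in fewer than 25% of the E12.5 cells. The number of SR genes called lower at E12.5 than at E9.5 was 1 and became 2 with a minimum of 3000 genes per cell, 0 with edgeR TMM factors, 0 with set C only, 3 with sets N530 and N523 in place of set C, 2 among cells with 5 or more of 8 cardiomyocyte markers and 0 without the cell with the most counts of the gene. The number called lower at P1 than at E9.5 was 0 and became 1 where set N530 alone stood for E9.5 (Jph2) and 1 with no filter on low values (Fkbp1b). The E12.5 cells with both Pln and Sln numbered 5, but 3 when 2 counts were required. They numbered 2 of 20 cells in set C only and 3 of 8 with set N523 in place of set C. With a minimum of 3000 genes, which left 18 of the 41 P1 cells, 4 rather than 8 P1 cells held both and 3 rather than 6 had more Sln than Pln. The other 119 of 132 recomputed counts stayed within 1.5 times the value given. With a minimum of 1000 genes, 4 of the 11 added cells had fewer than 60000 counts and could not be thinned. Beyond the values named here the cause of these changes was not tested. The comparison by GENCODE lengths and the pooled ratios without single cells were chosen after seeing the data.

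Depth limits low levels in the unthinned cells, where 1 count is worth 0.157 to 3.73 CPM at E9.5, 0.130 to 6.75 CPM at E12.5 and 3.05 to 14.4 CPM at P1. After thinning 1 count is worth the same in every cell.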
